A study of Homo sapiens with 8 samples.

Results

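The MYC, MAX and MXD network is the set of basic helix-loop-helix zipper transcription factors, with their dimer partners, that compete for the DNA word known as the E-box. Its members here were chosen by symbol, from a fixed list of 10 genes, and all 10 are among the 22808 gene symbols of the count table. They comprise the activators MYC and MYCN, the shared partner MAX, the antagonists MXD1, MXI1, MXD3, MXD4, MNT and MGA, and MLX, which partners MXD1, MXD4 and MNT as well as the glucose-sensing factors MLXIP and MLXIPL.

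MYC binds DNA as a dimer with MAX and raises transcription of genes for growth, ribosome production and nucleotide supply. The MXD proteins and MNT also need MAX or MLX, bind the same E-box, and repress through the SIN3 corepressor and its histone deacetylases. In many tissues proliferating cells carry more MYC, and cells that leave the cycle carry more MXD1 and MXD4. MYC and MYCN are both reported targets of the miR-34 family, whose seed miR-449a shares.

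The cells were RD18, a human cell line of fusion-negative rhabdomyosarcoma, a childhood tumour of the muscle lineage that lacks the PAX-FOXO1 fusion. In 4 libraries the cells had been transfected with miR-449a plus miR-340-5p, and in the 4 vehicle libraries with the reagent lipofectamine alone, with RNA taken at 60 h in both. All libraries come from the same line, so the design covers 1 genetic background, and no label tells whether a group's libraries were grown separately, and p-values here speak for differences among these libraries, whose replicate spread could be technical alone. The vehicle cells received no control RNA, so the effect of either microRNA and that of transfected RNA as such cannot be told apart.

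The transfected microRNAs are shown here because their seeds, bases 2 to 8 in capitals, set the words looked for in the members' 3′ UTRs. The sequences are RefSeq's (GRCh38.p14), from chr5:55170586-55170607 on the minus strand for miR-449a and chr5:180015361-180015382 on the minus strand for miR-340-5p.
hsa-miR-449a: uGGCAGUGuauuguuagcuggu
hsa-miR-340-5p: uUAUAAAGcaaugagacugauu
Their seeds differ, and the complementary 7-base DNA words are CACTGCC (miR-449a) and CTTTATA (miR-340-5p).

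Library totals ran from 2842165 to 5569342 counts in the microRNA group and from 2567737 to 4650213 in the vehicle group. Values are given as CPM, the usual counts scaled by library size, after TMM normalisation. All 7 muscle lineage markers (DES, MYOD1, MYOG, CHRNA1, CDH15, MYH3 and PAX7) were detected, with a summed level of 871 to 904 CPM in microRNA libraries and 1267 to 1327 CPM in vehicle libraries, and all 7 were lower in the microRNA group. Markers of other cell types summed to 2.31 to 3.86 CPM in microRNA libraries and 1.26 to 2.92 CPM in vehicle libraries. None of the 4 in the table (PTPRC, PECAM1, EPCAM and CD68) is at 0 throughout, and EPCAM had 21 counts in the microRNA group and 1 in the vehicle group. Their part in the results below was not tested.

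Cells given the microRNA pair had less MYC mRNA, more mRNA of the antagonists MXD1, MNT and MXD4, and more of the partner MLX, while the change of MAX and MXI1 did not pass the test. Of the 10 members, 8 had enough counts to be tested, and each of these was above the count filter in both groups, with a lowest value of 6.51 CPM in any library. Among those 8, 4 rose (MXD1, MNT, MXD4 and MLX) and 2 fell (MYC and MGA; edgeR quasi-likelihood test, adjusted p under 0.05). Across all 12366 tested genes, 33.4% rose and 34.0% fell, so 6 called members of 8 compares with 67.3% of all genes called in either direction. The microRNA and vehicle libraries did not overlap for the same 6 members, against 58.9% of all tested genes. The median log2 fold change was 0.36 over the 8 members and -0.001 over all tested genes. A share of called members near that of all genes is no result about the network as a whole, and the values of the single members follow.

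**Figure D1:**
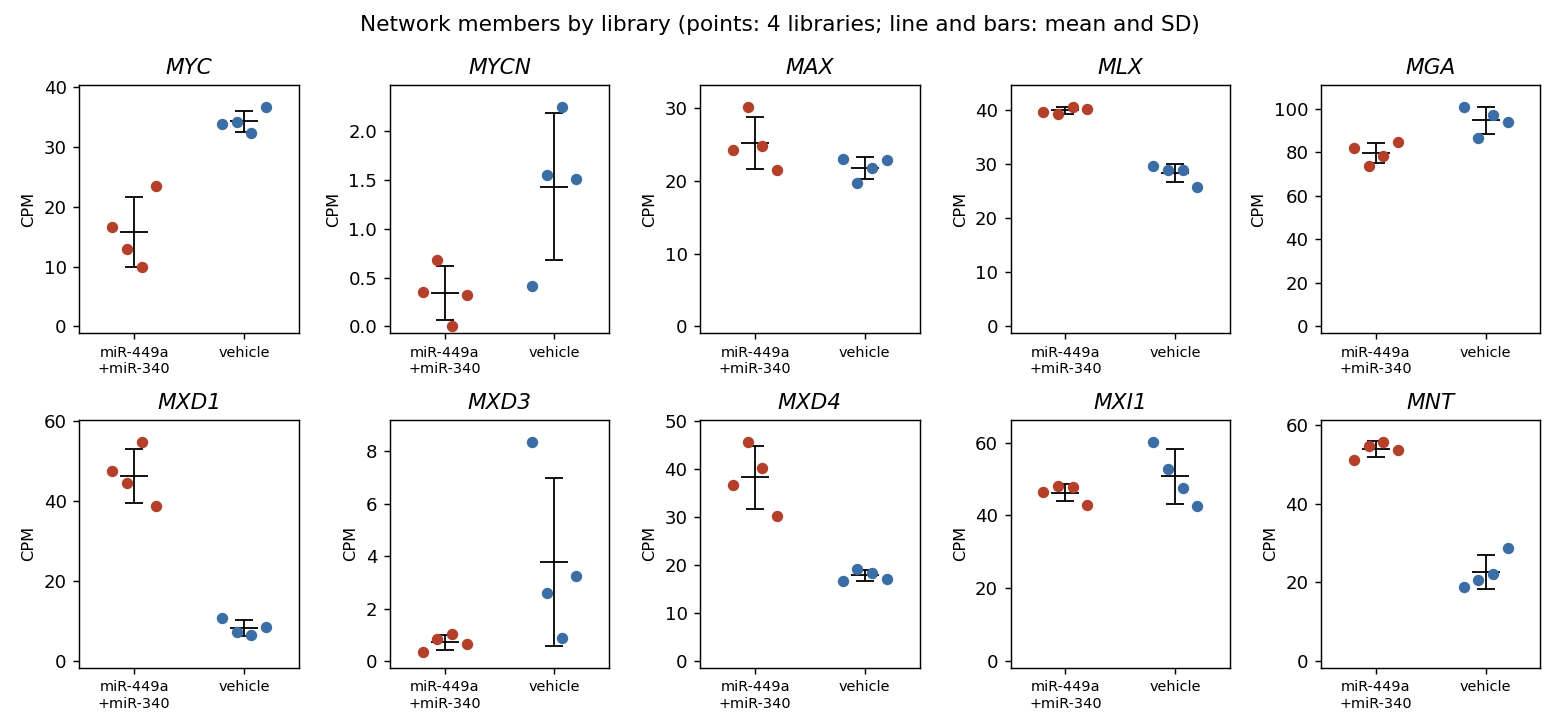
Level in CPM (vertical axis, from 0) of each of the 10 members in the 4 microRNA libraries, left, and the 4 vehicle libraries, right, with the mean and SD in black. MYC lies lower and MXD1, MXD4, MNT and MLX lie higher in every microRNA library than in any vehicle library, while MAX and MXI1 overlap and MYCN and MXD3 stay under 10 CPM.

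MYC, the activator that gives the network its name, lies at chr8:127735434-127741434 (GRCh38, plus strand). It measured 16.7, 13.0, 9.98 and 23.5 CPM in the microRNA libraries, against 33.9, 34.2, 32.3 and 36.7 CPM in the vehicle libraries. The groups did not overlap, and replicate 4 was the highest and replicate 3 the lowest of the microRNA libraries. MYC averaged 15.8 ± 5.83 CPM in microRNA cells and 34.3 ± 1.80 CPM in vehicle cells (SD, n = 4 each), a 2.19-fold fall (log2 fold change -1.13, SE 0.16, edgeR adjusted p = 6.93e-09). The coefficient of variation was 36.9% among microRNA libraries and 5.24% among vehicle libraries. In bulk RNA, fewer cells that express a gene and less of its RNA per cell cannot be told apart.

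MYCN, the paralogue that drives some neuroblastomas and alveolar rhabdomyosarcomas, is at chr2:15940564-15947007 (plus strand) and was near the limit of detection. It had 2, 4, 0 and 1 counts in the microRNA libraries and 1, 6, 10 and 6 counts in the vehicle libraries, too few to pass the count filter. The sums of 7 and 23 counts give a level 3.92-fold lower in microRNA cells, with a 95% interval from 1.63 to 10.8 that covers counting error only. With no filter the fit gave a log2 fold change of -1.86 (SE 0.75, edgeR adjusted p = 0.0355), and the groups overlapped. Its exons share 98 bases with the antisense gene MYCNOS, which had 7 counts in all libraries.

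MAX, the partner without which MYC and most antagonists do not bind DNA, is at chr14:65006174-65102695 (minus strand). It measured 24.3, 30.2, 24.8 and 21.6 CPM in microRNA libraries, against 23.0, 19.7, 21.8 and 22.9 CPM in vehicle libraries. The groups overlapped, and MAX did not pass (log2 fold change 0.23, SE 0.14, adjusted p = 0.141). The 95% interval of that change runs from -0.04 to 0.51 log2 units. Scaled by library size alone, MAX passed as higher (0.37, adjusted p = 0.0209). That scaling moved all tested genes up by a median of 0.14 log2 units, so the changes given here are relative to the typical tested gene.

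MLX, the second partner, which links MXD1, MXD4 and MNT to the MLXIP arm of the network, is at chr17:42567068-42573239 (plus strand). It measured 39.8, 39.2, 40.6 and 40.2 CPM in microRNA libraries, against 29.7, 29.0, 29.0 and 25.9 CPM in vehicle libraries, with no overlap. The rise was 1.41-fold (log2 fold change 0.49, SE 0.12, adjusted p = 0.000222). MLX shares 770 exon bases, 18.1% of its exons, with PSMC3IP on the other strand, and without the strand setting of the counting those reads cannot be assigned. PSMC3IP itself fell (log2 fold change -1.27, SE 0.17).

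MXD1, the founding MXD antagonist, induced when many cell types differentiate, had the largest change of the 8 tested members. The gene is at chr2:69897688-69942945 (plus strand). It measured 47.4, 44.4, 54.7 and 38.6 CPM in microRNA libraries, against 10.9, 7.25, 6.51 and 8.54 CPM in vehicle libraries. Every microRNA library was above every vehicle library, and the rise was 5.74-fold (log2 fold change 2.52, SE 0.16, adjusted p = 1.72e-21). Only 231 of the 12366 tested genes had a larger log2 fold change. SNRNP27, which shares 237 exon bases (3.73%) with MXD1 on the same strand, rose by less (log2 fold change 0.65, SE 0.07).

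MXD4, an antagonist found in quiescent and differentiated cells, is at chr4:2247432-2262294 (minus strand). Its level was 36.7, 45.7, 40.3 and 30.3 CPM in microRNA libraries, against 16.7, 19.2, 18.4 and 17.1 CPM in vehicle libraries. No library of the pair overlapped the other group, and MXD4 rose 2.15-fold (log2 fold change 1.11, SE 0.14, adjusted p = 2.72e-10).

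MNT, a larger antagonist that many cells express whether they cycle or not, is at chr17:2384060-2401118 (minus strand). It measured 51.1, 54.8, 55.8 and 53.8 CPM in microRNA libraries, against 18.8, 20.7, 22.2 and 28.6 CPM in vehicle libraries. The microRNA libraries lay close together and above the whole vehicle group, and the rise was 2.34-fold (log2 fold change 1.23, SE 0.12, adjusted p = 1.32e-13). The annotation places the antisense transcript AC006435.1 over 12.2% of its exons.

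MXI1, also called MXD2, is at chr10:110207605-110287365 (plus strand) and was the most abundant MXD gene in vehicle cells. It measured 46.5, 47.9, 47.9 and 42.8 CPM in microRNA libraries, against 60.2, 52.8, 47.4 and 42.5 CPM in vehicle libraries. The groups overlapped, and the change did not pass (log2 fold change -0.11, SE 0.11, adjusted p = 0.366, 95% interval -0.32 to 0.10). The sign of this small difference turned with library size as the only scaling (0.03).

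MXD3, known in mouse tissues as the MXD gene of S phase in cycling cells, is at chr5:177301461-177312757 (minus strand) and was scarce. It had 2, 5, 3 and 2 counts in microRNA libraries and 20, 10, 4 and 13 counts in vehicle libraries, and did not pass the count filter. The sums of 12 and 47 counts give a level 4.67-fold lower in microRNA cells, with a counting interval from 2.44 to 9.67. Vehicle libraries ranged from 0.898 to 8.37 CPM, wider than counting error gives, and the lowest of them was under the highest microRNA library at 1.03 CPM. With no filter the fit gave a log2 fold change of -2.25 (SE 0.54, edgeR adjusted p = 0.000131). RAB24 and PRELID1 overlap 18.0% and 22.5% of its exons, which adds doubt to so low a count.

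MGA, the giant antagonist that carries a T-box besides its zipper and scaffolds the repressor complex PRC1.6, is at chr15:41621224-41773081 (plus strand). It measured 81.8, 73.5, 78.5 and 84.7 CPM in microRNA libraries, against 100.8, 86.5, 97.2 and 93.9 CPM in vehicle libraries. The groups did not overlap, although the highest microRNA library and the lowest vehicle library differed by little. MGA fell 1.19-fold (log2 fold change -0.25, SE 0.08, adjusted p = 0.00786). The call was lost when libraries were scaled by size alone (-0.11, adjusted p = 0.265) and without microRNA replicate 2 (-0.20, adjusted p = 0.0527).

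**Figure D2:**
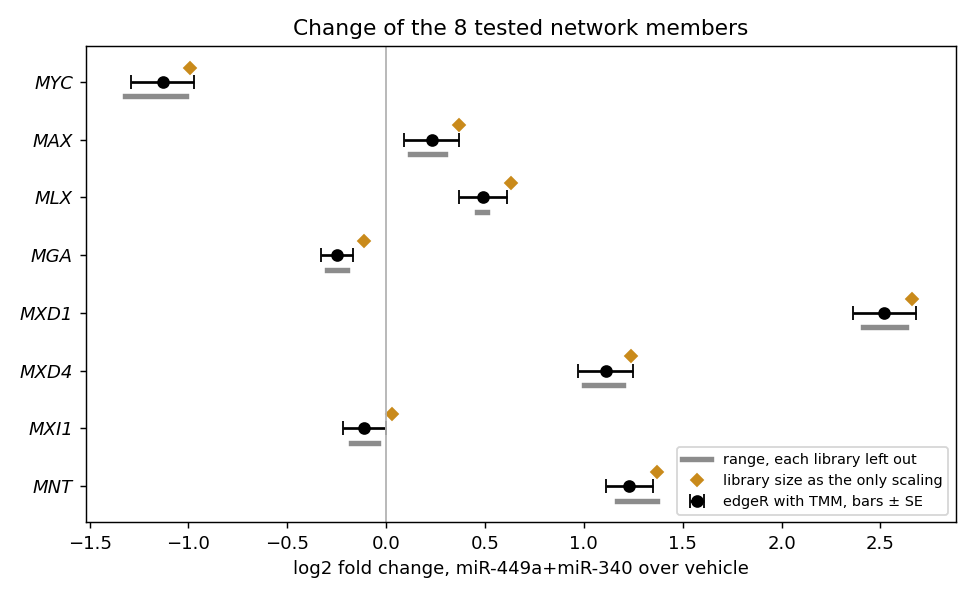
Log2 fold change, microRNA pair over vehicle (horizontal axis), of the 8 tested members by edgeR with TMM scaling (black points, bars ± SE), with library size as the only scaling (diamonds), and as a range when each of the 8 libraries was left out (grey bars). MXD1, MNT, MXD4 and MLX stay above 0 and MYC below it, while MAX, MXI1 and MGA lie within 0.4 log2 units of 0.

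Levels of different genes were compared as CPM per kilobase of annotated exon. In microRNA cells the order was MXI1 (10.045 ± 0.52), MLX (9.38 ± 0.14), MXD1 (7.29 ± 1.06), MNT (6.17 ± 0.23), MAX (5.69 ± 0.81), MXD4 (5.42 ± 0.92), MYC (5.26 ± 1.94) and MGA (4.51 ± 0.27; CPM per kilobase, SD, n = 4). From MNT to MYC, neighbours in that order lay within their SDs. In vehicle cells MYC was at the top with 11.4 ± 0.60, level with MXI1 at 11.0 ± 1.66, and then came MLX at 6.67 ± 0.40, MGA at 5.36 ± 0.35 and MAX at 4.93 ± 0.35. MNT at 2.59 ± 0.49, MXD4 at 2.53 ± 0.16 and MXD1 at 1.31 ± 0.30 CPM per kilobase closed that order, ahead of only MXD3 and MYCN. On this scale MXD1 lay above MYC in microRNA replicates 1, 2 and 3 (7.46, 6.98 and 8.62 against 5.56, 4.32 and 3.33 CPM per kilobase) and below it in microRNA replicate 4 (6.08 against 7.83). The means of the microRNA libraries for both genes lay within the sum of their SDs. In every vehicle library MXD1 lay below MYC. The per-length scale assumes that all annotated exons are used, which these counts do not show.

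Ratios within a library do not depend on scaling between libraries. MYC counts per MAX count were 0.686, 0.429, 0.403 and 1.09 in the microRNA libraries, against 1.47, 1.74, 1.48 and 1.604 in the vehicle libraries. MYC had more counts than MAX in each vehicle library and in microRNA replicate 4 alone of its group. These counts are not scaled by exon length, which is 3001 bases for MYC and 4430 for MAX. Per kilobase of exon, MYC was also above MAX in microRNA replicate 1 (5.56 against 5.49 CPM per kilobase). The mean log2 ratio was -0.74 ± 0.67 in microRNA cells and 0.65 ± 0.11 in vehicle cells (SD, n = 4 each), a difference of -1.39. An exact two-sided permutation test over the 70 possible assignments gave p = 0.0286, the smallest that 4 against 4 allows. MYC is the numerator, so this test is not independent of the fall of MYC given above. It was also chosen with earlier results of these data known. As descriptions with no test, the count ratio to MAX was 4.91-fold higher in microRNA cells for MXD1, 2.10-fold higher for MNT, 1.85-fold higher for MXD4 and 1.23-fold higher for MLX. It was 1.37-fold lower for MGA and 1.25-fold lower for MXI1. For MLX and MXI1 the ratios of the groups overlapped.

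The summed per-length level of MXI1, MXD1, MXD4 and MNT was 5.15, 6.98, 9.35 and 3.30 times that of MYC in the microRNA libraries, against 1.71, 1.55, 1.53 and 1.33 times in the vehicle libraries. Even the lowest microRNA library, replicate 4, was above all vehicle libraries. MYC is the denominator, so this ratio is not independent of the MYC values above. The antagonists MGA and MXD3 are not in this sum. MGA, which fell, averaged 4.51 CPM per kilobase in microRNA cells and 5.36 in vehicle cells. MXD3 was too scarce to test and had fewer counts in microRNA cells (12 against 47). The ratio with them included was not computed.

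**Figure D3:**
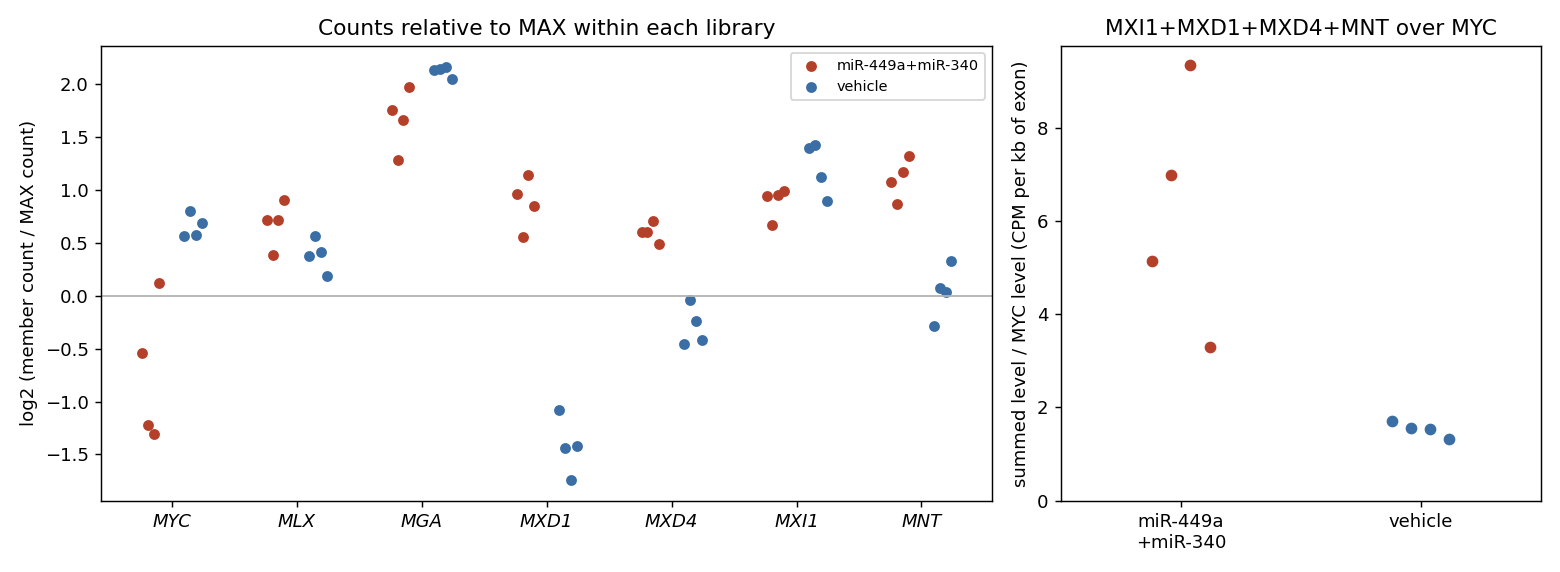
Left, log2 of a member's count over the MAX count in the same library, microRNA libraries in red and vehicle libraries in blue. Right, the summed level of MXI1, MXD1, MXD4 and MNT divided by that of MYC, both as CPM per kilobase of exon. The antagonists MGA and MXD3 are not in the sum. The MYC to MAX ratio is lower and the sum over MYC is higher in each microRNA library, from 3.30 upward against at most 1.71 in vehicle libraries.

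The 3 tested genes whose profile over the 8 libraries was most like that of MYC were ARL6IP1, PER2 and GUSB. The measure was the root-mean-square difference of centred log2(CPM + 1), which was 0.131, 0.136 and 0.143. ARL6IP1 averaged 37.9 ± 9.61 CPM in microRNA cells and 87.4 ± 4.79 CPM in vehicle cells, PER2 4.76 ± 1.84 CPM and 9.93 ± 0.71 CPM, and GUSB 10.8 ± 2.73 CPM and 24.0 ± 0.75 CPM, each with the microRNA group given before the vehicle group.

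Words matching the microRNA seeds were looked for in the longest annotated 3′ UTR of each member (GENCODE 29, GRCh38, sense strand). CACTGCC is in 17.9% and CTTTATA in 19.9% of the 10525 tested genes with such a 3′ UTR. The 3′ UTR of MYC, of 476 bases, holds neither 7-base word and has 1 copy of the 6-base core of each, ACTGCC and TTTATA, which are in 35.9% and 56.4% of tested genes. MYCN has 2 copies of CACTGCC in 910 bases, and MAX, MXD1 and MXD3 have no 7-base word of either microRNA. CTTTATA occurs in 1 member, MXI1, with 1 copy. The other 7-base match to miR-340-5p, TTTATAA, is in 32.9% of tested genes and in MGA alone of the members, with 1 copy. The core TTTATA has 6 copies in MGA, 3 each in MXI1 and MXD1, 2 in MLX and 1 in MXD4.

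The miR-449a word is also in MXD4 (3 copies), MNT, MLX and MGA (1 copy each), and those sites are shown because 3 of these 4 genes rose in cells given that microRNA. Capitals mark the word, and each line reads along the mRNA. The words are at chr4:2250396-2250402, chr4:2249558-2249564 and chr4:2247651-2247657 (minus strand) for MXD4, chr17:2386215-2386221 (minus strand) for MNT, chr17:42573212-42573218 (plus strand) for MLX and chr15:41771214-41771220 (plus strand) for MGA.
MXD4 site 1: gggctgcctggCACTGCCcgcttgccggt
MXD4 site 2: gtaaaatgctgCACTGCCcagcagcccgg
MXD4 site 3: gaccccctcccCACTGCCtgcacagagga
MNT site: ccaaacccagcCACTGCCaagcttcctgt
MLX site: gcagcactgggCACTGCCtgtcagtttat
MGA site: atattcagactCACTGCCagttggaggaa
In MNT, MGA and 1 of the 2 MYCN copies the word is followed by an A, the longer form of a seed match. The MYCN copies are not shown. MXD4, MNT and MLX were 2.15-fold, 2.34-fold and 1.41-fold higher and MGA 1.19-fold lower in microRNA cells. MYCN, which did not pass the count filter, had 7 counts in microRNA cells and 23 in vehicle cells. A match in the annotated sequence does not show that the site is bound or that this 3′ UTR is used in RD18.

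The E-box CACGTG, a palindrome and so the same on both strands, was looked for in RefSeq promoter windows from 250 bases before to 50 bases after each annotated start. It is in 7.26% of the 35116 windows of all genes and in 3 of the 14 windows of the 9 members that have one. By gene, it is in 3 of these 9 members (33.3%), against 8.77% of all genes with a window. MYC is the member with no window, so its promoter was not searched. The 3 windows with the E-box belong to MXD4, MNT and MLX, 3 of the 4 members that rose. They are shown in full with the E-box in capitals, read along the gene. They span chr4:2262060-2262359 (minus strand), chr17:2401011-2401310 (minus strand) and chr17:42566850-42567149 (plus strand) in GRCh38.p14.
MXD4 promoter: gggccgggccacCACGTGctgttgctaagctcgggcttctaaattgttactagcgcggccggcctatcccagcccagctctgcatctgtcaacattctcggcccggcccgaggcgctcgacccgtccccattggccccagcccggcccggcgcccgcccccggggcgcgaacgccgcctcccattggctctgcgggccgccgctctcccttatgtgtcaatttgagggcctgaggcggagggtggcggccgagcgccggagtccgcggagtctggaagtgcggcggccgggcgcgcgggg
MNT promoter: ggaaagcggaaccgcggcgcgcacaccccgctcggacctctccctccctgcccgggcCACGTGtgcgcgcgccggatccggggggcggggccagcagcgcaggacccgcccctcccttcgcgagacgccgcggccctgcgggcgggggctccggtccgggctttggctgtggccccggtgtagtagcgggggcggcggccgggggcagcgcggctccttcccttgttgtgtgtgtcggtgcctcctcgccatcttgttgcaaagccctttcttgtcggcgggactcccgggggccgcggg
MLX promoter: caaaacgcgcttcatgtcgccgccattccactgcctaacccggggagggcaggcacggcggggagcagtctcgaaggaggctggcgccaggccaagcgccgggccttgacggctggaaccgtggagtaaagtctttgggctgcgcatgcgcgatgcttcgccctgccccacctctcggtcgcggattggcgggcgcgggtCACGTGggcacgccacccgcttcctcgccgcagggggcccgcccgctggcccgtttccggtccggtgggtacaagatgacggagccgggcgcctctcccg
The E-box starts at -238 in MXD4, -193 in MNT and -50 in MLX relative to the annotated start. Its presence is a description of the sequence, and no binding was measured.

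The lists of partners, regulators and reported targets that follow are described by their counts, to be read against the 33.4% of all tested genes that rose and the 34.0% that fell, and no list was tested as a set. Among factors of the same structural class outside the network, 2 rose and 5 fell of 9 tested (median log2 fold change -0.55). MLXIP, the glucose-sensing partner of MLX, averaged 34.5 ± 2.61 CPM in microRNA cells and 57.8 ± 1.41 CPM in vehicle cells (log2 fold change -0.74, SE 0.10, edgeR adjusted p = 9.89e-09), so it fell while MLX rose. TFAP4, itself a reported MYC target, fell 1.66-fold, and SREBF2, the regulator of cholesterol synthesis, fell 3.02-fold. TFE3, a regulator of lysosomal genes, rose 2.70-fold. Of the 3 tested genes reported to be driven by MLXIP and MLX, TXNIP, an inhibitor of glucose uptake, rose 1.45-fold, while KLF10 fell 2.13-fold and PFKFB3, a regulator of glycolysis, fell 1.46-fold. Without vehicle replicate 2 only 1 of these falls passed.

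Of 12 tested genes of the SIN3 corepressor complex, which MXD and MNT proteins recruit, 5 rose and 5 fell (median 0.11). The deacetylase HDAC1, a reported target of the miR-449 family, averaged 85.4 ± 4.56 CPM in microRNA cells and 193 ± 18.2 CPM in vehicle cells, 2.26-fold lower. The histone-binding subunits RBBP7 and RBBP4 fell 2.65-fold and 1.596-fold, and ARID4B, a subunit that recognises chromatin, rose 1.78-fold.

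Of 17 tested MYC coactivators and partners, 7 rose and 6 fell (median 0.08). HCFC1 and WDR5, which help MYC to bind chromatin, fell 2.06-fold and 2.03-fold, and ACTL6A, a subunit of chromatin-remodelling and acetyltransferase complexes, fell 2.19-fold. BPTF, the large subunit of the NURF remodeller, rose 1.65-fold.

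Of 21 tested genes that set the turnover of MYC protein, 7 rose and 9 fell (median -0.03). The mitotic kinases AURKA, which stabilises MYCN, and PLK1 fell 7.79-fold and 13.5-fold. KIAA1524, which encodes CIP2A, an inhibitor of the phosphatase that destabilises MYC, averaged 22.9 ± 3.87 CPM in microRNA cells and 129 ± 11.7 CPM in vehicle cells, 5.44-fold lower. SKP2, a ubiquitin ligase subunit that acts on MYC, fell 2.13-fold. AURKA and PLK1 are also genes of mitosis. The 7 genes that rose are named after their values were seen. They were FBXO32 (3.09-fold), STUB1 (1.97-fold), FBXW7 (1.61-fold), GSK3A (1.47-fold), SKP1 (1.42-fold), USP36 (1.39-fold) and PPP2R1A (1.14-fold).

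Of 18 tested regulators of the MYC gene and mRNA, 7 rose and 8 fell (median -0.06). The mRNA-binding protein genes HNRNPD, ELAVL1 and IGF2BP1 fell 1.75-fold, 1.58-fold and 1.38-fold, and FUBP1, which binds upstream of the MYC promoter, fell 1.52-fold. IGF2BP1 is known to protect MYC mRNA and HNRNPD to promote its decay.

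Of 16 tested subunits of the repressor complex PRC1.6, in which MGA pairs with MAX, 2 rose and 9 fell (median -0.25). HDAC1 and WDR5, already described, were among those that fell, and RNF2 and EHMT1, named after their values were seen, were the 2 that rose. Without vehicle replicate 1 only 1 rise passed. YAF2, a subunit linked to the ring finger ligases, fell 2.45-fold and TFDP1, the partner of E2F6, fell 1.66-fold. Of 13 germline genes that this complex is reported to silence in mouse cells, 7 are in the table and only ZCWPW1, a reader of histone methylation in meiosis, was tested. It averaged 8.08 ± 2.12 CPM in microRNA cells and 2.75 ± 0.31 CPM in vehicle cells, 2.93-fold higher. The other 6 had at most 14 counts summed over a group.

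The 4 lists of genes reported as activated by MYC each held more genes that fell than rose. Of 40 tested ribosome biogenesis genes, 32 fell and 1 rose (median log2 fold change -0.62). The nucleolar protein genes NOP56, NPM1 and FBL fell 2.46-fold, 1.80-fold and 1.87-fold, and PA2G4, a growth regulator of the nucleolus, fell 2.08-fold. NOP56 averaged 170 ± 10.7 CPM in microRNA cells and 418 ± 13.7 CPM in vehicle cells (edgeR adjusted p = 1.55e-27). The 1 gene that rose, named after its values were seen, was DDX18, a helicase (log2 fold change 0.13, adjusted p = 0.0424). The count of rises in this list was 0 without any 1 of microRNA replicates 1 and 2 and vehicle replicates 1, 2 and 3.

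Of 34 tested genes of nucleotide, polyamine and nutrient supply, 26 fell and 4 rose (median -0.68). ODC1, the rate-limiting enzyme of polyamine synthesis and a classical MYC target, averaged 55.2 ± 4.17 CPM in microRNA cells and 203 ± 7.08 CPM in vehicle cells, 3.64-fold lower. The next enzyme of that pathway, spermidine synthase (SRM), fell 5.09-fold. PAICS, of purine synthesis, fell 3.02-fold, and lactate dehydrogenase LDHA, also a reported target of the miR-34 and miR-449 family, fell 7.51-fold. The 4 genes that rose, named after their values were seen, were the hexokinase gene HK2 (2.15-fold), the amino acid transporter genes SLC3A2 (2.08-fold) and SLC1A5 (1.15-fold), and the spermine synthase gene SMS (1.19-fold). Without vehicle replicate 1 or microRNA replicate 4 the count of rises was 2.

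Of 25 tested genes of translation, chaperones and mitochondria, 19 fell and 3 rose (median -0.56; PRMT5, SUPV3L1 and FARSA, named after their values were seen). Prohibitin (PHB) fell 7.08-fold, the mitochondrial chaperonin genes HSPD1 and HSPE1 fell 1.72-fold and 1.76-fold, and TFAM, which packages mitochondrial DNA, fell 1.90-fold. Of 13 tested cell cycle genes, 11 fell and 1 rose (median -1.65); the gene that rose, named after its values were seen, was ID2. Without vehicle replicate 1 or microRNA replicate 2 the count of rises was 2. The phosphatase gene CDC25A fell 10.8-fold, the helicase subunits MCM5 and MCM4 9.51-fold and 3.13-fold, and CDK4 5.39-fold. CDK4, MCM4, MCM5 and CDC25A are also genes of the dividing cell, and these lists were written with earlier results of these data known. Whether CDC25A, CDK4, SKP2 or other listed genes are direct targets of the microRNAs was not tested.

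Of 14 tested genes reported as repressed by MYC, 5 rose, 3 fell and 6 did not pass (median -0.01). DDIT3, which encodes the stress factor CHOP, rose 15.5-fold, the growth arrest gene GADD45A 2.36-fold and the ferritin heavy chain gene FTH1 1.95-fold. GAS1, a gene of growth-arrested cells, went the other way and was 8.05-fold lower.

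The E-box is in a promoter window of 15 of 32 ribosome biogenesis genes (46.9%), 14 of 28 genes of nucleotide, polyamine and nutrient supply (50%), 7 of 22 genes of translation, chaperones and mitochondria (31.8%) and 4 of 11 cell cycle genes (36.4%), against 8.77% of all genes with a window. The 8.77% covers all 27305 genes with a window, whether tested here or not, and no such share is given for tested genes alone. High shares were not confined to these lists. The word is also in 6 of 12 germline genes reported as silenced by PRC1.6 (50%), 3 of 11 MYC coactivators (27.3%) and 4 of 15 genes of MYC turnover (26.7%), and in 1 of 11 genes of the SIN3 complex (9.09%). It is in 1 of 11 genes reported as MYC-repressed (9.09%) and in 0 of 10 other factors of the same structural class. Some genes of each of these lists have no window, so the shares cover only genes with one and do not stand for whole lists. Windows exist for 32 of 40 ribosome biogenesis, 28 of 34 nucleotide, polyamine and nutrient, 11 of 14 cell cycle, 11 of 17 coactivator and 15 of 21 turnover genes. Of the 112 tested genes on the 4 lists, 92 (82.1%) have a window. Of the 39 with CACGTG, 30 fell and 2 rose (median -0.63), and of the 53 without it, 40 fell and 6 rose (median -0.64). The shares that fell were thus 76.9% with the word and 75.5% without it, and the difference was not tested.

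**Figure D4:**
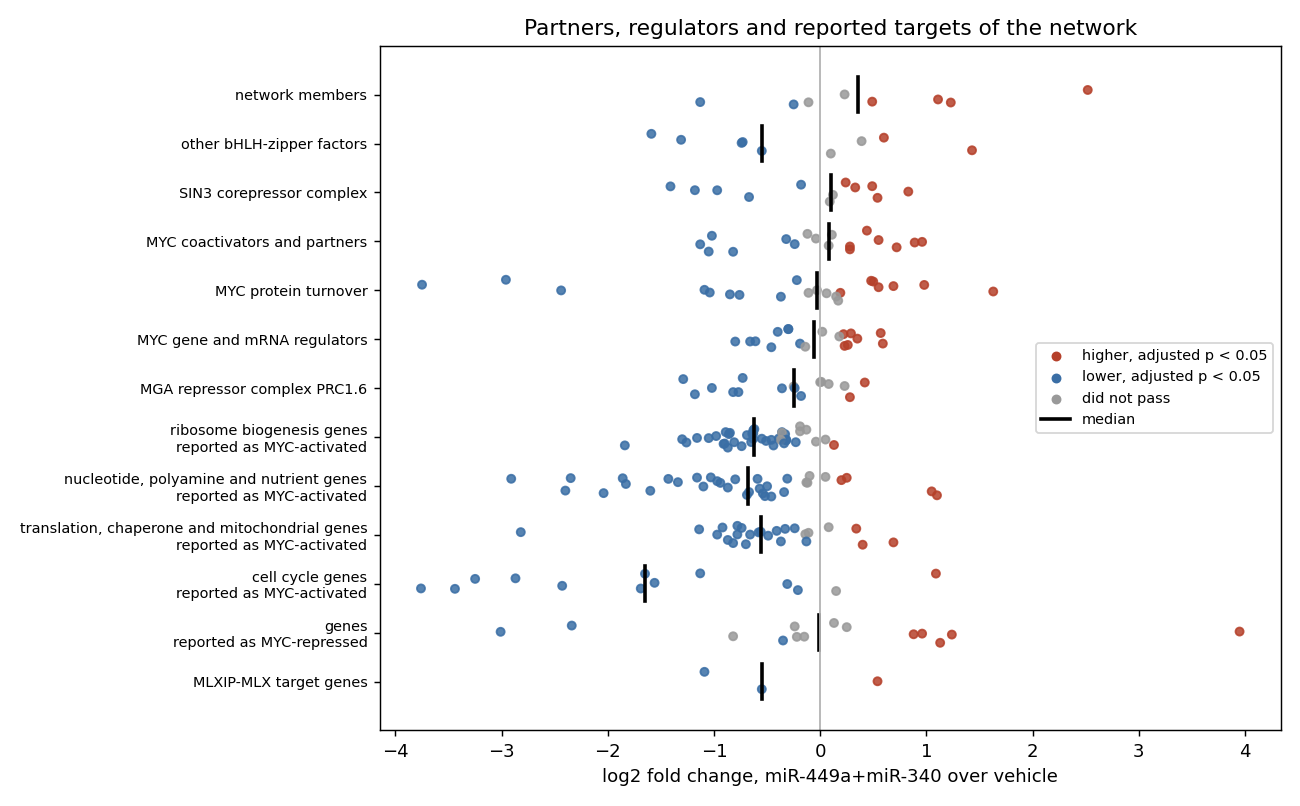
Log2 fold change, microRNA pair over vehicle (horizontal axis), of each tested gene (points) in the network and in 12 lists of partners, regulators and reported targets, with the list median as a black line. The medians of the 4 lists of reported MYC-activated genes lie between -1.65 and -0.56, and that of reported MYC-repressed genes at -0.01.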

How the data were processed

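The authors deposited whole-number read counts per gene symbol, with no normalization, 1 column per library, matched to samples through the library code in the labels. Several programs are named in the submitters' processing notes, with no roles: TopHat2 (2.0.13), SAMtools (0.1.19.24), HTSeq (0.5.3p3) and DESeq2, besides the build GRCh38. The annotation was not given in the sources used here, nor was the strand setting of the counting. The kit was a stranded mRNA kit, per the labels' protocols.

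Genes kept by filterByExpr (minimum count 10, minimum total 15; 12366 of 22808) entered edgeR (4.0.16, R 4.3.3) with TMM factors: robust glmQLFit, group as the only term, two-sided glmQLFTest, Benjamini-Hochberg over all tested genes, threshold 0.05. Each SE was obtained by dividing the log2 fold change by the root of the F statistic. Intervals of 95% use the normal distribution for fold changes and the binomial for count ratios. Alternatives were DESeq2 (1.42.0), limma's voom (3.58.1), other scalings and count filters, removal of mitochondrially encoded genes, a replicate block and leaving out each library. The code was tested on simulated data in which far fewer genes changed than were called here. Replicate pairs gave a chi-square per gene of 2.2 to 5.95, so no library was a copy of another.

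Members, lists and tests were chosen with earlier results of these data known, and the lists come from general knowledge. Named are all members, up to 4 genes per list with the smallest adjusted p and at least 1 CPM, and the 3 genes most like MYC. Outside this rule stand the marker genes, genes whose exons overlap a member, and genes marked as named after their values were seen. Gene models (GENCODE 29) and sequences (RefSeq) are on GRCh38; all 10 members matched by symbol in the gene models and 9 in the promoter table.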

Additional observations from a re-analysis of the deposited data

Results flagged for a closer look

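In 128 groups of 4 libraries (members, the MYC to MAX ratio and named genes), 3 had a library set apart from the rest, where chance gives about 1 in 20. No member was among them. CDC25A measured 12.4 CPM in microRNA replicate 3, against 5.15 to 6.12 CPM in the other microRNA libraries. FUBP1 measured 203 CPM in vehicle replicate 2, against 239 to 246 CPM in the other vehicle libraries. ARL6IP1, listed above for its likeness to MYC, measured 94.5 CPM in vehicle replicate 3, against 84.2 to 85.7 CPM in the others.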

How the results depend on the processing

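The changes of MYC, MXD1, MXD4, MNT and MLX kept their direction and their side of the threshold under all 17 alternatives. With library size as the only scaling, MAX passed as higher (0.37), MGA did not pass (-0.11), and the number of members that fell was 1; with no count filter it was 4, since MYCN and MXD3 were then tested and fell. Other counts of genes that rose moved as follows: 4 of PRC1.6 with upper-quartile scaling and with library size alone, 0 of ribosome biogenesis with a filter of 1 CPM in 4 libraries, 2 of the cell cycle list with RLE scaling, upper-quartile scaling or library size alone, and 2 of the MLXIP-MLX targets with no filter or the 1 CPM filter. When each library was left out, MGA ranged from -0.30 to -0.20, members that fell from 1 to 3, rises from 1 to 3 in PRC1.6, 0 to 1 in ribosome biogenesis, 2 to 4 in nucleotide, polyamine and nutrient genes and 1 to 2 in the cell cycle list, and falls from 1 to 2 among the MLXIP-MLX targets. The MYC to MAX difference ranged from -1.68 to -1.20, with p = 0.0571 in the exact permutation test, the smallest that 4 against 3 allows. The labels state no pairing, so the replicate number was not treated as one. Same-numbered libraries had correlations of their deviations of 0.0135 to 0.0575, against -0.0348 to 0.018 for differently numbered ones. Whether same-numbered libraries share a factor was not tested. With the replicate block MYC was at -1.15 and MXD1 at 2.51, and the block changed no member's call. Except where a count of tested genes or samples explains it, the cause of these moves was not tested. MYCN and MXD3 did not pass the count filter of the main fit, and whether depth or low expression accounts for this was not tested.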
